A study of Mus musculus with 27 samples.

Results

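The Hox cluster genes are the 39 genes of the mouse HoxA, HoxB, HoxC and HoxD clusters. They were taken as every gene of the 3 deposited count tables whose symbol is Hox followed by a cluster letter from a to d and a paralog number, which gave 39 of the 27080 genes listed in any table. The HoxA cluster contributed 11 genes, HoxB 10, HoxC 9 and HoxD 9. RNA-seq was made from J1 mESCs, a mouse embryonic stem cell line grown without feeder cells on gelatin with leukemia inhibitory factor (LIF). Cells were infected with lentivirus that carried a non-targeting control shRNA (called shCon in the labels and shNT here, 3 libraries) or 1 of 2 shRNAs against Gas41, shGas41-1 (3 libraries) and shGas41-2 (2 libraries). Infected cells were selected with puromycin, and the knockdown (KD) cells were harvested 8 days after infection. Control cells that carried the control vector were also sampled undifferentiated with LIF (EB day 0, 2 libraries) and as embryoid bodies, aggregates that differentiate without LIF, on day 6 (EB day 6, 2 libraries). The labels do not say whether replicates were separate infections or cultures, so p-values measure only the spread between these libraries.

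Hox genes encode homeodomain transcription factors that give cells their position along the body axis and along the limb. Within a cluster the genes lie in the order of their paralog numbers, and in the embryo those with low numbers are expressed first and towards the head, those with high numbers later and towards the tail or the limb tip. In mESCs the clusters are held at very low expression by Polycomb complexes, with both activating and repressive histone marks at many promoters, and they open in sequence when cells differentiate in response to Wnt, Fgf and retinoic acid signals. Gas41, encoded by Yeats4, is a YEATS-domain protein that binds acetylated histones and is a subunit of complexes that deposit the histone variant H2A.Z.

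In the mm9 genome, which the authors used, the HoxA genes spanned 105.5 kb of chromosome 6 (52105366 to 52210874), HoxB 173.9 kb of chromosome 11 (96055630 to 96229570), HoxC 115.7 kb of chromosome 15 (102751534 to 102867274) and HoxD 96.83 kb of chromosome 2 (74506367 to 74603200). The 2 shRNAs do not share a target site, and the sites are shown because every KD result rests on them. That of shGas41-1 is in the 3′ UTR of Yeats4, at chr10:116652513-116652533 on the minus strand, and that of shGas41-2 is in coding sequence of its exon 2, at chr10:116659320-116659340 on the same strand.
shGas41-1: gtagcattccacgacgttaag
shGas41-2: atcgttaagccaatcgtttat

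RefSeq promoter windows of the GRCm38.p6 build, from 250 bases before to 50 bases after a transcription start, were available for 22 of the 39 symbols in 24 windows, and each of the 24 matched mm9 at 1 place. The 30 bases before the RefSeq start are printed for 4 genes that rose in KD or EBs and lie at the ends of their clusters, for Hoxd10, which had the largest fitted rise with shGas41-1, and for Hoxa2, as a contrast in base composition. Capitals mark CpG dinucleotides. In mm9 these stretches are Hoxd10 at chr2:74529918-74529947, Hoxd13 at chr2:74506252-74506281, Hoxd1 at chr2:74601007-74601036 and Hoxb1 at chr11:96227042-96227071 on the plus strand, and Hoxa13 at chr6:52210875-52210904 and Hoxa2 at chr6:52114831-52114860 on the minus strand.
Hoxd10: tctcattggcttggttgtcatgtggtCGgc
Hoxd13: gggaaagggCGggagCGagCGCGcCGCGga
Hoxa13: ggCGgcCGcctggCGCGacccCGcagggCG
Hoxd1: ggctggCGccaCGtggctgcCGcCGcCGgt
Hoxb1: ggccatgggctcaagcttcagctctgtgac
Hoxa2: gtccaatttcaaccttgtctccatgaattc

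Over the whole 300-base windows, the GC content was 81.0% for Hoxa13, 74.3% for Hoxd13, 69.7% for Hoxd1, 62.7% for Hoxd10, 59.3% for Hoxb1 and 45.7% for Hoxa2. The ratio of observed to expected CpG dinucleotides had a median of 0.626 over the 24 Hox windows and 0.384 over all 32851 windows of the table. The letters CCAAT, searched on both strands, were found in 62.5% of the Hox windows and 37.4% of all windows, TATAAA in 16.7% and 13.6%, and GGGCGG in 41.7% and 35.7%. None of the 3 motifs contains another. These are matches of letters and not sites shown to be used.

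Libraries held between 59224537 and 81524773 counts, so that 3 counts, the smallest amount taken as measurable, stood for between 0.0368 and 0.0507 CPM (counts as a share of the library's total, on the usual per-million scale). Yeats4 was at 52.1 to 63.2 CPM in the shNT libraries, 3.50 to 4.79 CPM with shGas41-1 and 7.68 to 8.68 CPM with shGas41-2, which fits the labels of all 5 KD libraries. Between replicates of a group, counts differed by a chi-square of 29.2 to 81.3 per degree of freedom, except that shGas41-1 library 3 differed from libraries 1 and 2 by 144 and 236. Markers of undifferentiated ESCs (8 genes, among them Pou5f1 and Sox2) summed to 6430 to 7000 CPM in shNT, 5840 to 6940 with shGas41-1, 6350 to 6580 with shGas41-2 and 2180 to 2350 at EB day 6.

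Hox expression was low in undifferentiated cells. All 39 genes together made up 21.3, 22.2 and 24.5 CPM in shNT libraries 1 to 3 and 22.3 and 26.4 CPM in EB day 0 libraries 2 and 3. Between 26 and 30 of the 39 genes were above 3 counts in each of these 5 libraries, and between 5 and 8 had no count. Per kilobase of exon, Hoxc13, a regulator of hair and nail keratins, was the highest Hox gene in shNT, with a mean of 2.38 CPM per kb. Hoxb9 (1.34), Hoxc12 (1.10) and Hoxd13 (0.553) were also among the highest, and at EB day 0 these 4 genes stood in the same order, from 2.46 for Hoxc13 to 0.679 for Hoxd13. The 16 genes with paralog numbers 9 to 13 held between 64.7% and 69.3% of the Hox counts in shNT libraries, and the 95% Wilson intervals of these shares lay between 62.0% and 71.4%. Intervals and floors cover counting error only, since reads are not independent molecules.

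**Figure D1:**
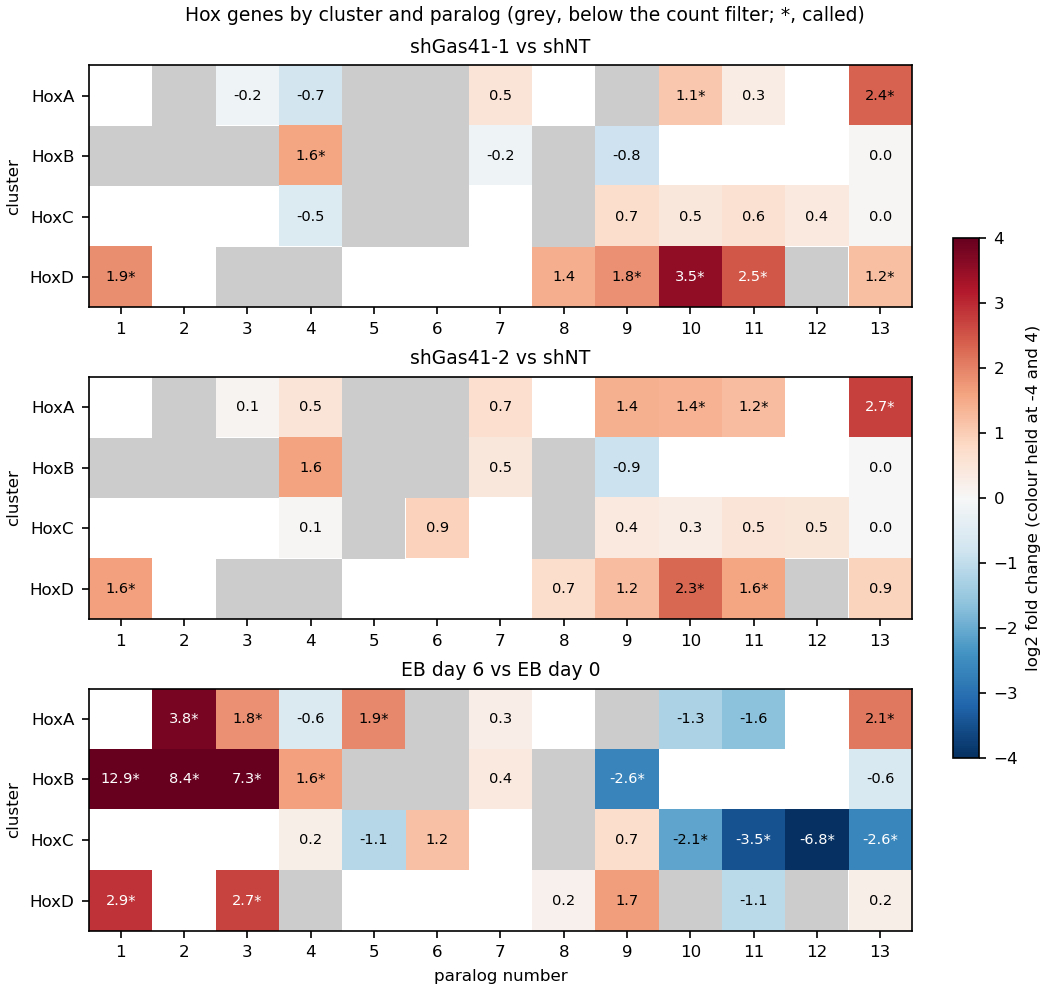
Log2 fold change of each Hox gene by cluster (rows) and paralog number (columns), for shGas41-1 against shNT, shGas41-2 against shNT and EB day 6 against EB day 0. An asterisk marks a called gene, grey a gene below the count filter and white a number that the cluster lacks or a gene not shown. With both shRNAs the called genes lie mostly at paralogs 9 to 13 of HoxA and HoxD. At EB day 6 the genes called higher lie at paralogs 1 to 5, apart from Hoxa13. Some other genes of paralogs 4 and 5 were not called. Those called lower are Hoxb9 and HoxC genes 10 to 13.

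The question asked of the KD libraries was which Hox genes change when Gas41 is depleted in mESCs that are kept with LIF. With shGas41-1, 8 of the 39 Hox genes were upregulated, where upregulated means that edgeR's quasi-likelihood test gave a log2 fold change of at least 1 and a Benjamini-Hochberg adjusted p of at most 0.05, and none was downregulated. Of all 18274 genes tested, 7.9% were upregulated and 2.4% downregulated by the same rule, and 23 Hox genes passed the count filter. With shGas41-2, 6 Hox genes were upregulated and none downregulated, beside 3.96% and 0.869% of 18405 genes, and 25 Hox genes passed the filter. Before adjustment 1 Hox gene, Hoxb9, was lower at a p under 0.05 with each shRNA, and DESeq2 also called 0 Hox genes lower with either. The median log2 fold change of the Hox genes tested was 0.52 with shGas41-1 and 0.67 with shGas41-2, where those of all genes were 0.02 and -0.01. Hoxb4, Hoxd9 and Hoxd10 had at most 9 counts in any shNT library and passed the filter through their KD libraries. A gene this low in shNT is tested only if it is higher in KD. These medians, and counts out of the genes tested, are therefore tilted towards a rise. The KDs were compared with the same 3 shNT libraries, so their lists are not independent. Hoxa10, Hoxa13, Hoxd1, Hoxd10 and Hoxd11 were called with both shRNAs, which is 62.5% of the shGas41-1 list and 83.3% of the shGas41-2 list. RNA was taken from whole cultures, in which a small number of cells with high expression cannot be told apart from a low level in every cell.

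The HoxD cluster held most of the change with shGas41-1. The mean CPM of each of its 9 genes was higher with shGas41-1 than in shNT, and 5 of the 6 that passed the filter were called. Among those called, Hoxd9 and Hoxd10 passed it through their KD libraries. Its summed level was 2.41, 2.48 and 1.48 CPM in shNT libraries 1 to 3, 7.39, 7.11 and 4.98 CPM in shGas41-1 libraries 1 to 3, and 4.56 and 4.22 CPM in shGas41-2 libraries 1 and 2. Every KD library was thus above every shNT library in its HoxD level, and shGas41-1 library 3 had the lowest sum of its group. HoxD made up 6.02% to 11.3% of the Hox counts in shNT, 21.2% to 26.0% with shGas41-1 and 15.1% to 18.4% with shGas41-2.

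Hoxd10 (ENSMUSG00000050368, chromosome 2, 74529147 to 74533163), a gene of the lumbar spinal cord and hindlimb, had the largest fitted rise of the cluster. It had 6, 5 and 4 counts in the shNT libraries (0.101, 0.0721 and 0.0552 CPM), 74, 80 and 34 counts with shGas41-1 (0.985, 1.02 and 0.525 CPM) and 32 and 25 counts with shGas41-2 (0.393 and 0.312 CPM). All 5 KD libraries were above all 3 shNT libraries, and the 2 shRNAs did not overlap. The log2 fold change was 3.53 (SE 0.41, adjusted p = 0.00251) with shGas41-1 and 2.28 (SE 0.45, adjusted p = 0.0223) with shGas41-2. Hoxd11 (ENSMUSG00000042499, 74517449 to 74525798), which with Hoxa11 patterns the forearm bones and the kidney, was at 0.253, 0.216 and 0.138 CPM in shNT, 1.16, 1.48 and 0.618 CPM with shGas41-1, and 0.442 and 0.686 CPM with shGas41-2. Its KD libraries were also all above shNT, and it rose by log2 2.50 (SE 0.39, adjusted p = 0.00478) and 1.56 (SE 0.40, adjusted p = 0.0482).

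Hoxd13, the gene at the 5′ end of the cluster and a regulator of digits and external genitalia, was the most abundant HoxD gene. It was at 1.45, 1.61 and 1.05 CPM in shNT, 3.79, 2.77 and 2.47 CPM with shGas41-1, and 2.69 and 2.11 CPM with shGas41-2. Every KD library was above every shNT library, and Hoxd13 was called with shGas41-1 (log2 1.21, SE 0.24, adjusted p = 0.0121) and not with shGas41-2 (log2 0.89, SE 0.25, adjusted p = 0.0596). Hoxd9 was at 0.0844, 0.130 and 0.0276 CPM in shNT, 0.306, 0.306 and 0.201 CPM with shGas41-1, and 0.208 and 0.150 CPM with shGas41-2. It acts with Hoxa9 in the upper forelimb, and its call with shGas41-1 (log2 1.82, SE 0.51, adjusted p = 0.0397) was kept in 8 of 15 alternatives.

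Hoxd1 (ENSMUSG00000042448, 74601037 to 74603200), at the opposite, 3′ end of the cluster and known in mouse for the wiring of pain-sensing neurons, also rose with both shRNAs. It was at 0.152, 0.101 and 0.152 CPM in shNT, 0.532, 0.447 and 0.417 CPM with shGas41-1, and 0.405 and 0.399 CPM with shGas41-2. The libraries of each KD lay close together and well above shNT, with log2 fold changes of 1.85 (SE 0.33, adjusted p = 0.00783) and 1.65 (SE 0.39, adjusted p = 0.0379). Hoxd12, next to Hoxd13, was below the count filter in both comparisons, with 2, 4 and 0 counts in shNT, 12, 14 and 7 with shGas41-1, and 14 and 10 with shGas41-2, so every KD library was above every shNT library in a gene that was not tested. Hoxd8 was at 0.0552 to 0.338 CPM in shNT and 0.412 to 0.753 CPM with shGas41-1, and its log2 difference of 1.44 did not pass the test (adjusted p = 0.0956). Hoxd3 and Hoxd4, of which 67.4% of the exon bases of Hoxd4 lie in annotated Hoxd3, had at most 7 counts in any shNT or KD library.

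**Figure D2:**
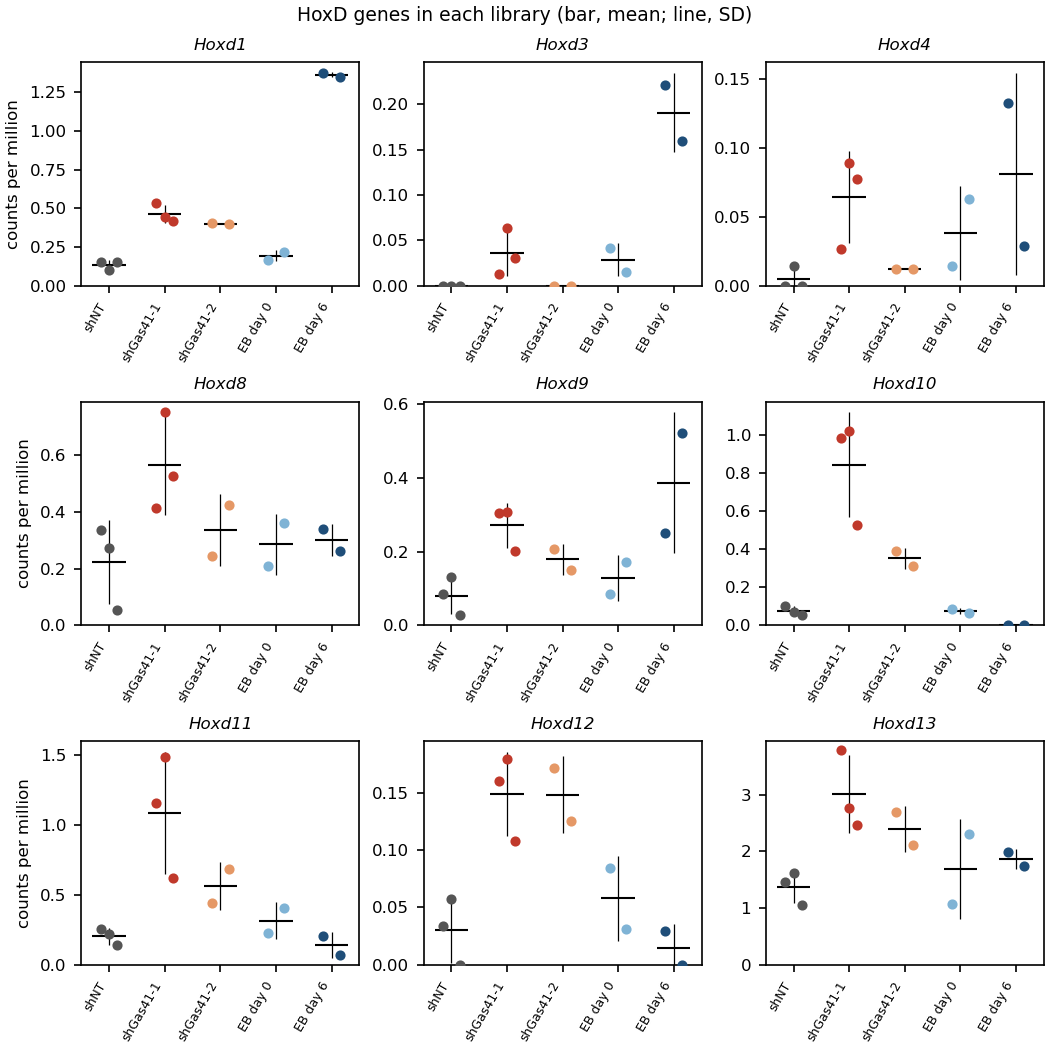
CPM of the 9 HoxD genes in every library (points), by group on the horizontal axis, with the group mean (bar) and SD (line); each panel has its own vertical axis from 0. Hoxd10 reaches 1.02 CPM with shGas41-1 and has no count at EB day 6, while Hoxd1 is highest at EB day 6, at 1.35 to 1.38 CPM.

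In the HoxA cluster the called genes were Hoxa10 and Hoxa13 with both shRNAs and Hoxa11 with shGas41-2. Hoxa13 (ENSMUSG00000038203, chromosome 6, 52207693 to 52210874), the counterpart of Hoxd13 in digit and genital development, was at 0.101, 0.274 and 0.0967 CPM in shNT, 0.798, 1.10 and 0.448 CPM with shGas41-1, and 0.773 and 1.24 CPM with shGas41-2. All KD libraries were above all shNT libraries, with log2 fold changes of 2.36 (SE 0.49, adjusted p = 0.0131) and 2.73 (SE 0.48, adjusted p = 0.0145). Hoxa10 (ENSMUSG00000000938, 52181196 to 52190853), a regulator of the lumbar vertebrae and of the uterus, was at 0.912, 0.909 and 0.732 CPM in shNT, 1.28, 1.90 and 1.95 CPM with shGas41-1, and 1.94 and 2.30 CPM with shGas41-2. It rose by log2 1.09 (SE 0.26, adjusted p = 0.0228) and 1.40 (SE 0.22, adjusted p = 0.0110), and again the KD and shNT libraries did not overlap.

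Hoxa11 was called with shGas41-2 alone. It was at 0.608, 0.490 and 0.483 CPM in shNT, 0.519, 0.728 and 0.603 CPM with shGas41-1, and 1.04 and 1.30 CPM with shGas41-2. The shGas41-1 libraries overlapped shNT (log2 0.31, adjusted p = 0.451), and the shGas41-2 libraries lay above both other groups (log2 1.23, SE 0.26, adjusted p = 0.0288). The antisense gene Hoxa11as shares 38.6% of the exon bases of Hoxa11. It was called with both shRNAs, at log2 1.83 (SE 0.40, adjusted p = 0.0156) and 2.24 (SE 0.43, adjusted p = 0.0211), from a mean of 0.144 CPM in shNT. The strand used in counting is not given in the sources used here, so reads of the 2 genes cannot be told apart in the shared stretch.

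In HoxB 1 gene was called. Hoxb4, a gene of the cervical region and of blood stem cells, had 6, 5 and 4 counts in shNT (0.101, 0.0721 and 0.0552 CPM), 15, 23 and 10 with shGas41-1 (0.200, 0.294 and 0.154 CPM) and 24 and 12 with shGas41-2 (0.294 and 0.150 CPM). Every KD library was above every shNT library, and it was called with shGas41-1 (log2 1.58, SE 0.45, adjusted p = 0.0420) and not with shGas41-2 (log2 1.62, SE 0.54, adjusted p = 0.0973). The shGas41-1 call was kept in 5 of 15 alternatives. Hoxb9, which patterns the thoracic ribs, went the other way. It was at 3.02, 2.83 and 4.46 CPM in shNT, 2.48, 1.56 and 1.48 CPM with shGas41-1 and 1.73 and 1.85 CPM with shGas41-2, and every KD library was below every shNT library. The log2 differences of -0.83 (SE 0.26, adjusted p = 0.0589) and -0.86 (SE 0.24, adjusted p = 0.0630) passed neither part of the rule.

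Of the 9 HoxC genes, 6 were tested with shGas41-1 and 7 with shGas41-2. Among those tested 0 were called with either shRNA by edgeR or DESeq2, and 0 had an unadjusted p under 0.05 in edgeR. Hoxc5, below the filter in both, had 3, 6 and 6 counts in shNT, 9, 27 and 7 with shGas41-1, and 5 and 13 with shGas41-2. Every shGas41-2 library was above every shNT library in Hoxc11 and Hoxc12, and every shGas41-1 library was below every shNT library in Hoxc4. The 9 genes summed to 7.83 to 10.0 CPM in shNT, 9.09 to 9.70 CPM with shGas41-1 and 8.17 to 10.8 CPM with shGas41-2, and these ranges overlapped. Hoxc13 was at 4.91, 5.61 and 7.06 CPM in shNT, 5.76, 5.76 and 5.55 CPM with shGas41-1 and 4.62 and 6.56 CPM with shGas41-2, with log2 differences of 0.04 (SE 0.17) and 0.01 (SE 0.22). Over all 6 HoxC genes tested with shGas41-1 the log2 differences ran from -0.53 for Hoxc4 to 0.69 for Hoxc9.

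By position, 6 of the 8 genes called with shGas41-1 and 5 of the 6 called with shGas41-2 had paralog numbers 9 to 13, a class that holds 16 of the 39 Hox genes but 14 and 15 of the 23 and 25 that passed the filter. Without a filter, 13 of these 16 genes had a higher mean CPM in each KD than in shNT. With shGas41-1 so did 6 of the 8 genes of paralogs 1 to 3 and 10 of the 15 of paralogs 4 to 8. With shGas41-2 these counts were 4 of 8 and 10 of 15. Of all genes tested, 51.9% with shGas41-1 and 48.5% with shGas41-2 had a fitted log2 fold change above 0. Taken alone, shGas41-1 gave 15 of 39 genes whose libraries were all above shNT, beside 16.0% of all genes, and 2 below, beside 17.8%, and shGas41-2 gave 15 above, beside 17.2%, and 1 below, beside 24.5%. Of all 39 genes, 10 were higher in each of the 5 KD libraries than in each shNT library, against 10.0% of all 27080 genes, namely Hoxa5, Hoxa10, Hoxa13, Hoxb4, Hoxd1, Hoxd9, Hoxd10, Hoxd11, Hoxd12 and Hoxd13. Hoxb9 was the only Hox gene that was lower in each of them, against 14.2% of all genes. Across the 39 genes the log2 change of mean CPM (with 0.1 CPM added) and the paralog number had a Pearson's r of 0.26 with shGas41-1 and 0.38 with shGas41-2, given as a description over genes that share libraries. Over the 23 and 25 genes that passed the filter, r was 0.25 and 0.17 and Spearman's rho was 0.25 and 0.081.

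The 2 shRNAs were also set against each other over the 8 libraries. Of the 28 Hox genes tested 0 differed, as did 0 of all 19146 genes (0%) by edgeR. At an unadjusted p under 0.05 there were 4 Hox genes and 1348 genes, and DESeq2 called 0 Hox genes and 71 genes. The 4 were Hoxa11, which was lower with shGas41-1 by log2 -0.92 (SE 0.26, adjusted p = 0.443), and Hoxb1, Hoxd10 and Hoxd11, which were higher by 1.76 (SE 0.73, adjusted p = 0.656), 1.25 (SE 0.36, adjusted p = 0.442) and 0.93 (SE 0.39, adjusted p = 0.672). Yeats4 itself was lower with shGas41-1 than with shGas41-2 by log2 -0.94 (SE 0.18, adjusted p = 0.198). The part of KD depth in the Hox values was not tested.

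The number of called genes depended on single libraries. With shGas41-1 it fell from 8 to 4 without shNT 3 and to 5 without shNT 2 or without shGas41-1 library 1, and with shGas41-2 from 6 to 2 without shNT 2, 3 without shNT 3, 1 without shGas41-2 library 1 and 0 without its library 2 (7 higher at an unadjusted p under 0.05). Without shGas41-1 library 3, which differed most from its replicates, 7 of the 8 genes called with shGas41-1 were called, the exception being Hoxa10. Hoxd1, Hoxd10 and Hoxd11 were called with shGas41-1 in all 15 alternatives, and Hoxa13 with shGas41-2 in 13 of 14.

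The EB libraries show which Hox genes respond when control mESCs differentiate. At EB day 6, 10 Hox genes were upregulated and 5 downregulated relative to EB day 0, out of 30 tested, beside 16.6% and 14.7% of all 18287 genes. The upregulated genes were Hoxa2, Hoxa3, Hoxa5, Hoxa13, Hoxb1, Hoxb2, Hoxb3, Hoxb4, Hoxd1 and Hoxd3, and the downregulated genes were Hoxb9, Hoxc10, Hoxc11, Hoxc12 and Hoxc13. Of the 10 upregulated genes, 7 had paralog numbers 1 to 3. Among them Hoxb1, Hoxb2 and Hoxb3 had 0 counts on day 0 and passed the filter through the day 6 libraries. Both EB day 6 libraries were above both EB day 0 libraries in 17 of the 39 genes, beside 31.2% of all genes, and below in 13, beside 39.5%. By the call, the share of Hox genes that fell was near that of all genes, and by overlap it was below it. A fall at EB day 6 was thus no more common among Hox genes than these shares. Of the 16 with numbers 9 to 13, 5 were called downregulated and 1, Hoxa13, upregulated. Across the 30 genes tested, log2 fold change and paralog number had a Pearson's r of -0.63 and a Spearman's rho of -0.65, a description over genes of the same 4 libraries.

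Hoxb1 (ENSMUSG00000018973, chromosome 11, 96227066 to 96229570), which specifies the identity of the hindbrain segment rhombomere 4, changed the most. It had 0 counts in both EB day 0 libraries and 418 and 1407 counts at EB day 6 (6.18 and 20.5 CPM), so that it was at least 299-fold higher than 3 counts per library would be, and the day 6 libraries differed widely. It became the highest Hox gene per kilobase, with a mean of 5.74 CPM per kb. Its fitted log2 fold change of 12.87 (adjusted p = 0.00079) depends on the prior count. Hoxb2, a hindbrain gene of facial motor neurons, had 0 counts on day 0 and 10 and 72 counts on day 6, at least 13.4-fold higher (adjusted p = 0.0146). Hoxb3 had 0 counts on day 0 and 12 and 25 on day 6, at least 6.07-fold higher (adjusted p = 0.00545). The antisense gene Hoxb3os shares 49.4% of the exon bases of Hoxb2 and 37.9% of those of Hoxb3, and it too had 0 counts on day 0 and 0.222 and 0.625 CPM on day 6, so reads in the shared stretches cannot be assigned to one gene.

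Among the HoxA genes, Hoxa2, which patterns the second branchial arch, was at 0.0280 and 0.0314 CPM (2 counts each) on day 0 and 0.207 and 0.611 CPM on day 6 (log2 3.79, SE 0.83, adjusted p = 0.00778). Hoxa3, needed for the thymus and parathyroid, was at 0.224 and 0.486 CPM on day 0 and 1.01 and 1.34 CPM on day 6 (log2 1.81, SE 0.45, adjusted p = 0.0128), and 53.5% of its exon bases lie in other annotated genes. Hoxa5, a regulator of lung and neck skeleton, was at 0.140 and 0.0628 CPM and then 0.444 and 0.305 CPM (log2 1.93, SE 0.56, adjusted p = 0.0238). In each of these genes both day 6 libraries were above both day 0 libraries. Hoxa13 was the one gene with a paralog number of 9 or more that was called upregulated, from 0.224 and 0.282 CPM to 0.725 and 1.32 CPM (log2 2.10, SE 0.45, adjusted p = 0.00722). Hoxd9 was at 0.0840 and 0.173 CPM on day 0 and 0.252 and 0.523 CPM on day 6, which did not overlap, and just missed the threshold (log2 1.68, SE 0.61, adjusted p = 0.0517).

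Hoxd1 rose from 0.168 and 0.220 CPM to 1.38 and 1.35 CPM (log2 2.89, SE 0.35, adjusted p = 0.000671), with day 6 libraries that nearly coincided. Hoxd3, a gene of the first neck vertebrae, went from 3 and 1 counts to 15 and 11 (log2 2.70, SE 0.72, adjusted p = 0.0170), and shares 35.8% of its exon bases with other genes. Hoxb4 went from 0.0840 and 0.173 CPM to 0.266 and 0.480 CPM (log2 1.63, SE 0.58, adjusted p = 0.0491), and its call was kept in 6 of 13 alternatives.

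The genes that fell included Hoxc13, Hoxb9 and Hoxc12, which were among the highest per kilobase before differentiation. Hoxc13 was at 5.18 and 6.92 CPM on day 0 and 0.977 and 0.902 CPM on day 6 (log2 -2.60, SE 0.24, adjusted p = 0.000212). Hoxb9 went from 4.62 and 3.25 CPM to 0.444 and 0.742 CPM (log2 -2.64, SE 0.34, adjusted p = 0.000905). In both genes the day 6 libraries were far below the day 0 libraries. Hoxc12, a neighbour of Hoxc13 at the 5′ end of its cluster, had 65 and 78 counts on day 0 and 0 and 1 on day 6, a ratio of 144 in summed counts scaled to depth with a 95% counting interval from 25.5 to 5740 (adjusted p = 0.000411). Hoxc11 had 18 and 20 counts and then 3 and 0, a ratio of 12.8 with an interval from 4.06 to 64.7 (adjusted p = 0.0145). Hoxc10, a lumbar and hindlimb gene, went from 0.588 and 0.439 CPM to 0.192 and 0.0291 CPM (log2 -2.12, SE 0.71, adjusted p = 0.0395).

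**Figure D3:**
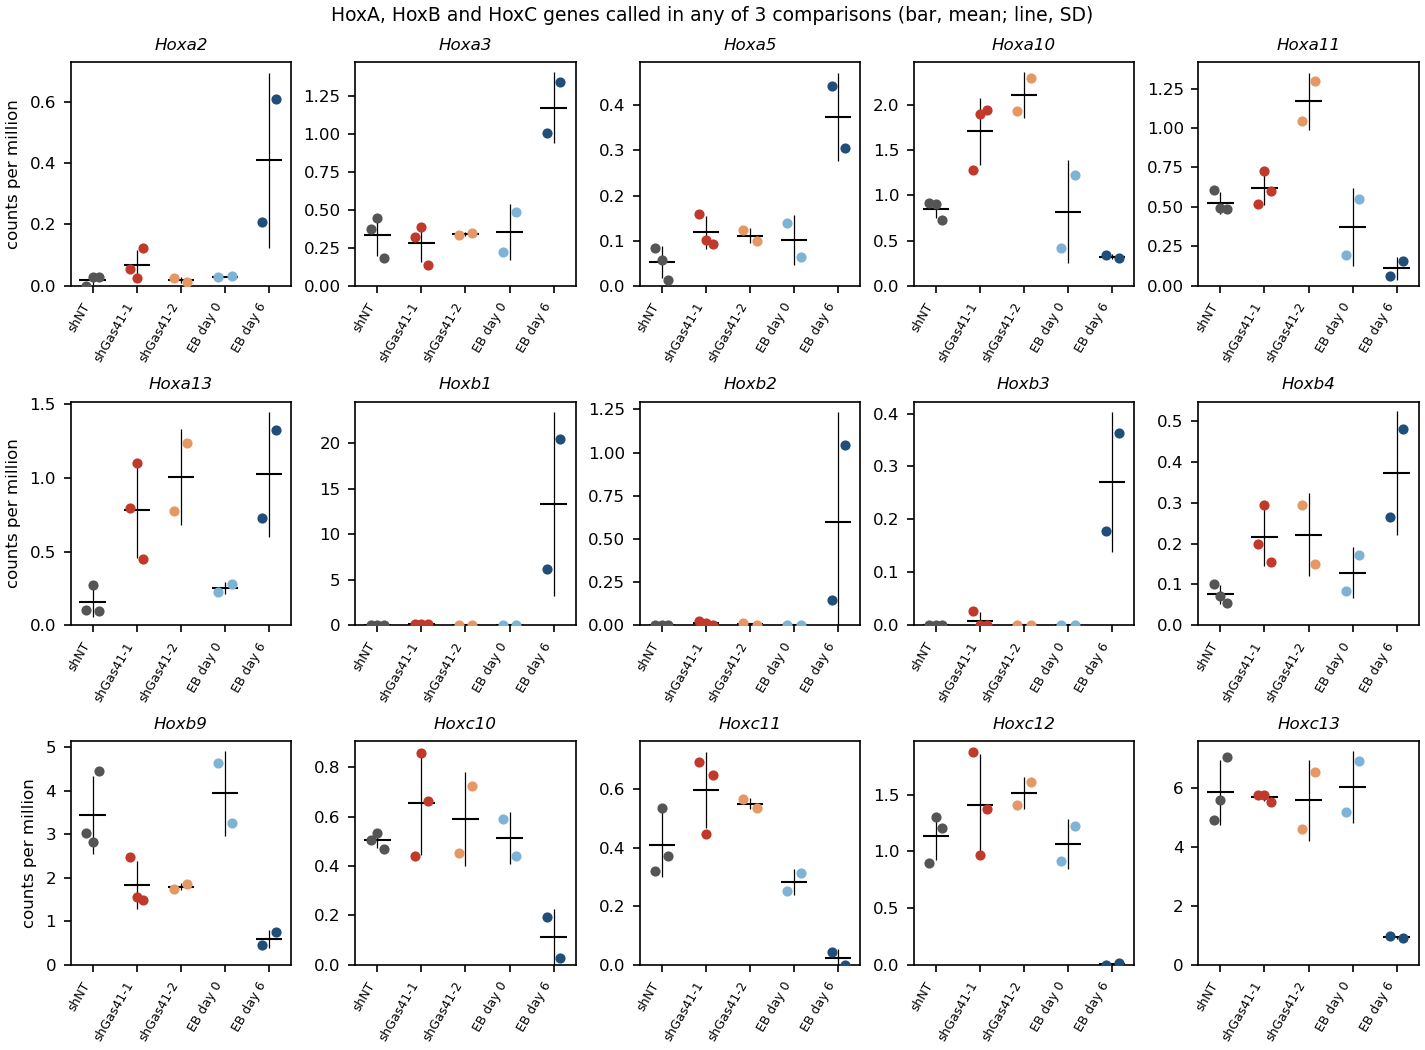
CPM of the 15 HoxA, HoxB and HoxC genes called in any of the 3 comparisons, in every library (points), with the group mean (bar) and SD (line); each panel has its own vertical axis from 0. Hoxb1 has 0 counts at EB day 0 and up to 20.5 CPM at EB day 6, while Hoxc12 stands at 0.895 to 1.88 CPM in all shNT and KD libraries and at 0 and 0.0145 CPM at EB day 6.

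As a summed level, the fall of the high paralogs at EB day 6 lay in HoxC and HoxB more than in HoxD. The 2 HoxB genes with numbers 9 to 13 summed to 4.86 and 3.39 CPM on day 0 and 0.592 and 0.829 CPM on day 6. The 5 HoxC genes with numbers 9 to 13 summed to 7.06 and 9.09 CPM on day 0 and 1.45 and 1.19 CPM on day 6, while the 5 HoxD genes of that class summed to 1.54 and 2.98 CPM and then 2.49 and 2.34 CPM, with overlapping libraries. Hoxd13 held most of the HoxD sum, at 1.065 and 2.307 CPM and then 1.997 and 1.745 CPM. In Hoxd10, Hoxd11 and Hoxd12, as in Hoxa10 and Hoxa11, both day 6 libraries were below both day 0 libraries, while in Hoxd9 and Hoxa13 both were above. Genes of paralogs 1 to 3 made up 19.5% and 22.1% of the Hox counts on day 0 and 54.2% and 72.8% on day 6. Those of paralogs 9 to 13 went from 65.2% and 66.4% to 26.0% and 15.7%. The total over all Hox genes was 22.3 and 26.4 CPM on day 0 and 22.0 and 39.1 CPM on day 6 and overlapped. Hoxb1 alone, with 0 counts on day 0, held 6.18 and 20.5 CPM of the day 6 totals. Of the day 6 counts of paralogs 1 to 3 it held 418 of 806 and 1407 of 1960. The overlap of the totals thus rested on Hoxb1, and the summed level of the other Hox genes was lower on day 6 than on day 0. Without EB day 0 library 2 or library 3 the number of upregulated Hox genes fell from 10 to 3 and 2, with 4 and 3 downregulated, where a single day 0 library is assumed to vary like the day 6 libraries.

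**Figure D4:**
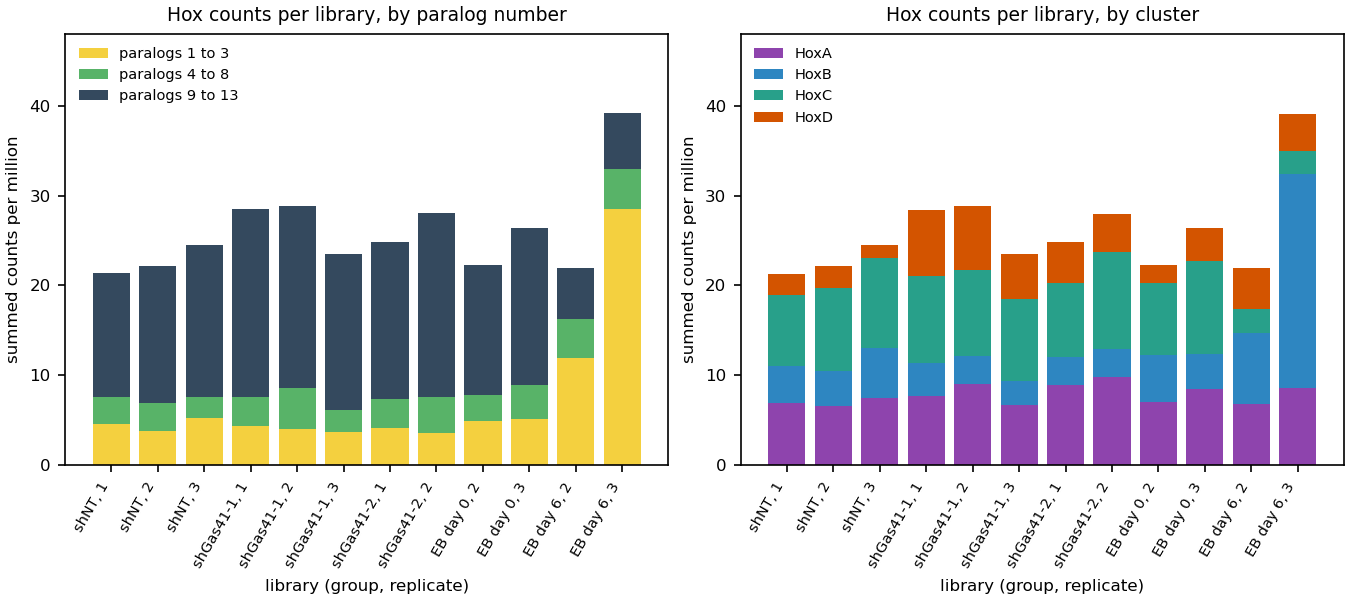
Summed CPM of all 39 Hox genes in each library, stacked by paralog number (left) and by cluster (right). Paralogs 9 to 13 make up most of each bar in undifferentiated and KD libraries, at 13.8 to 20.9 CPM, and 5.71 and 6.15 CPM at EB day 6, where paralogs 1 to 3 reach 11.9 and 28.5 CPM.

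Since both experiments had control libraries of their own, the difference between a KD response and the EB response could be tested in 1 fit of the 12 libraries. With shGas41-1, 12 of 34 Hox genes differed from their EB response, beside 33.2% of all 19684 genes, and with shGas41-2, 12 of 34 beside 31.5%. These shares are near those of all genes. By direction, the KD change was above the EB change in 10 Hox genes and below it in 2, with each shRNA. Of all 19684 genes, 3492 were above and 3040 below with shGas41-1, and 3280 and 2925 with shGas41-2. In both contrasts the KD change was above the EB change for Hoxa10, Hoxa11, Hoxb9, Hoxc10, Hoxc11, Hoxc12, Hoxc13, Hoxd10, Hoxd11 and Hoxd12, all with paralog numbers of 9 or more. It was below for Hoxb1 in both, for Hoxa3 with shGas41-1 and for Hoxd1 with shGas41-2. For Hoxd11 the KD change exceeded the EB change by log2 3.54 (SE 0.74, adjusted p = 0.00217) and 2.62 (SE 0.77, adjusted p = 0.0167). The difference for Hoxa10 was 2.30 (SE 0.56, adjusted p = 0.00567) and 2.62 (SE 0.58, adjusted p = 0.00338).

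Hoxd10 had opposite signs in the 2 systems. It was called with both shRNAs, while in EBs, where it was below the count filter, it had 6 and 4 counts at EB day 0 and 0 in both EB day 6 libraries, at least 1.67-fold lower, and the difference between responses had adjusted p-values of 0.000182 and 0.000781. Hoxb1 differed in size, with 2, 4 and 0 counts in shNT, 11, 13 and 9 with shGas41-1, 4 and 3 with shGas41-2, and 418 and 1407 at EB day 6 (adjusted p = 0.00339 and 0.00189 for the difference). Hoxa13 and Hoxd1 were the Hox genes called upregulated in all 3 comparisons. Hoxa13 reached 0.448 to 1.24 CPM in KD libraries and 0.725 to 1.32 CPM at EB day 6, and its responses were not shown to differ, at log2 0.22 (SE 0.72) and 0.60 (SE 0.75). In Hoxd1 the KD levels of 0.399 to 0.532 CPM lay below the 1.35 to 1.38 CPM of EB day 6, and the KD change was below the EB change by log2 -1.08 with shGas41-1, which did not pass, and -1.28 (SE 0.47, adjusted p = 0.0458) with shGas41-2, a call kept in 4 of 17 alternatives. Across all 39 genes the KD and EB changes in log2(mean CPM + 0.1) had a Pearson's r of 0.19 with shGas41-1 and 0.03 with shGas41-2.

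**Figure D5:**
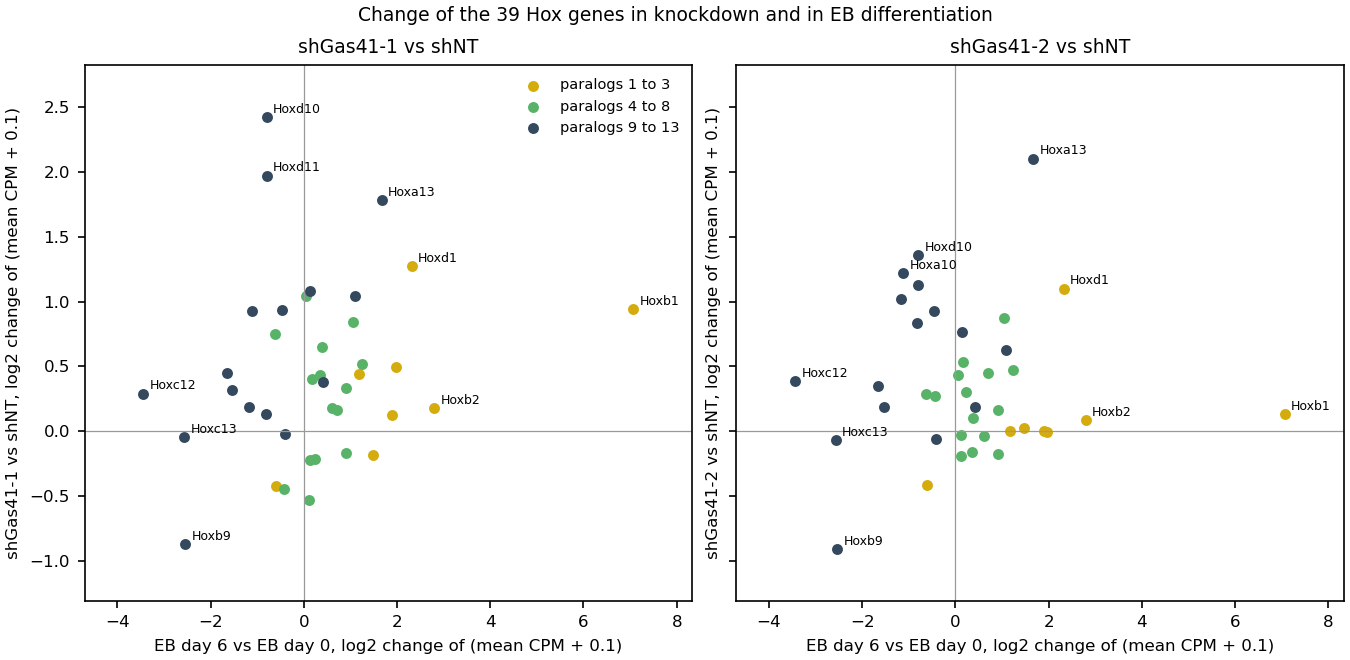
Change of each of the 39 Hox genes in EB differentiation (horizontal) and KD (vertical) on the scale log2(mean CPM + 0.1), with shGas41-1 on the left and shGas41-2 on the right, coloured by paralog number. Hoxd10 and Hoxd11 are high on the KD axis and below 0 on the EB axis, Hoxb1 is farthest to the right, and Hoxa13 and Hoxd1 are above 0 on both.

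Genes that work with or upstream of Hox proteins were described from lists. Of the 9 TALE cofactors, homeodomain proteins that bind DNA together with Hox proteins, shGas41-1 raised 2, shGas41-2 3 and differentiation 5, where 7.9%, 3.96% and 16.6% of all genes rose. Meis1 was at 0.635 to 1.05 CPM in shNT, 2.73 to 3.42 CPM with shGas41-1 and 2.06 to 2.25 CPM with shGas41-2 (log2 2.00 and 1.48, adjusted p = 0.00267 and 0.0151), and at 0.953 to 1.44 CPM and 0.989 to 1.54 CPM at EB days 0 and 6. Meis2 rose by log2 1.87, 1.64 and 2.78 in the 3 comparisons. Pknox2 rose with shGas41-2 (log2 1.13) and at EB day 6 (3.33), where Meis3 and Pbx3 rose too (2.31 and 3.71). Evx1, the homeobox gene beside Hoxa13, rose in all 3, by log2 2.73, 2.85 and 6.20, from 0.732 to 1.46 CPM in shNT to 3.03 to 12.0 CPM in KD libraries. Among the other 7 tested genes that flank the clusters, Skap1 rose with shGas41-1 (log2 1.22), and Skap2 and Ttll6 fell at EB day 6 (log2 -1.11 and -3.43).

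Of the 9 genes for signals that open the clusters, shGas41-1 raised 3 and shGas41-2 raised 2, while at EB day 6 there were 6 that rose and 2 that fell, beside the same shares of all genes and 14.7% that fell at EB day 6. Aldh1a2, an enzyme that makes retinoic acid, rose by log2 1.23 and 1.32 in the KDs and fell by log2 1.97 in EBs, whereas Crabp2, a carrier of retinoic acid, rose by 1.37, 1.38 and 2.32. Cyp26a1, which degrades retinoic acid and is induced by it, rose by 3.89 with shGas41-1, from 0 to 0.0433 CPM in shNT to 0.160 to 0.294 CPM. No shNT library was above 3 counts, so this fitted value depends on the prior count. Cyp26a1 was at 0.135 and 0.0874 CPM with shGas41-2, also above every shNT library, and reached 42.3 and 102 CPM at EB day 6. Fgf8, Wnt3 and Gdf11 rose at EB day 6 (log2 8.82, 7.81 and 1.76), and the receptor Rarg fell (-1.38). Of the 6 ParaHox genes, relatives of the Hox genes in a cluster apart, Cdx2 and Pdx1 rose and Cdx1 fell with shGas41-1 (log2 2.50, 1.68 and -1.64), Cdx2 missed the threshold with shGas41-2 (log2 1.79, adjusted p = 0.0681), and it rose at EB day 6 (log2 6.71). The 12 Polycomb and Trithorax genes, which repress and maintain Hox expression, had log2 differences from -0.61 to 0.17 with the 2 shRNAs, short of the fold threshold. Cbx7 and Ezh2 were lower with shGas41-1 at log2 -0.61 and -0.38 (adjusted p = 0.0349 and 0.0445), and Eed and Jarid2 fell at EB day 6 (both log2 -1.33).

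Markers of other cell types were set beside these values. Mesoderm and primitive streak markers (6 genes) summed to 8.88 to 13.8 CPM in shNT, 4.26 to 7.69 CPM and 7.23 to 7.57 CPM in the KDs and 1240 to 1750 CPM at EB day 6, where all 6 rose, and Tbx6 fell with shGas41-1 (log2 -1.42), as did Eomes. Fibroblast markers (12 genes), of interest since fibroblasts carry active Hox genes, summed to 12.7 to 21.2 CPM in shNT, 8.14 to 14.2 CPM with shGas41-1, 15.5 to 17.2 CPM with shGas41-2 and 69.5 to 161 CPM at EB day 6. In the KDs the 5 tested had log2 differences of at most 0.99, Thy1 fell with shGas41-1 (-1.10), Postn had 0 counts in every shNT and KD library, and 7 of 8 tested rose at EB day 6. Markers of limb and posterior mesenchyme (6 genes) summed to 1.01 to 1.28 CPM in shNT, 1.08 to 2.08 CPM with shGas41-1 and 1.30 to 1.95 CPM with shGas41-2, and Lmx1b rose with shGas41-1 (log2 1.54) and was at log2 1.71 with shGas41-2 (adjusted p = 0.0768). Trophoblast markers (6 genes) summed to 47.8 to 63.1 CPM in shNT, 30.2 to 40.8 CPM with shGas41-1 and 35.9 to 43.8 CPM with shGas41-2. Gata3 rose with both shRNAs, by log2 4.30 and 3.26, and Cdx2 with shGas41-1, while with shGas41-1 Krt8, Tfap2c and Krt7 were at log2 -0.85, -0.63 and -0.49 (adjusted p = 0.0215, 0.0373 and 0.437). Of 3 neural markers tested Pax6 rose with shGas41-1 (log2 2.43), and of 5 endoderm markers Gata6 rose with shGas41-1 (1.76) and Sox7 with shGas41-2 (1.23). Of the 8 ESC markers Klf4 and Esrrb fell with shGas41-1 (log2 -1.13 and -1.04), and 6 of 8 fell at EB day 6. The part of these cell types in the Hox values was not tested.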

How the data were processed

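RNA-seq of 12 libraries was analysed, and the ChIP-seq samples were not used here. Per the labels and the study's methods, the authors made libraries with a TruSeq RNA kit and aligned the reads to mm9 by TopHat2 2.0.10. The deposited values are raw gene counts from HTSeq. The deposited log2 fold changes and p-values of the authors' own edgeR comparisons were not used. Column totals ran from 59224537 to 81524773. Columns called ESC in the EB table were read as EB day 0. Genes absent from a table were set to 0 there.

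Counts were tested in R 4.3.3 with edgeR 4.0.16 (filterByExpr with minimum count 10 and total 15, TMM, glmQLFit, glmQLFTest, Benjamini-Hochberg over all genes tested). Calls needed an adjusted p of at most 0.05 and a change of at least 1 on the log2 scale in either direction. Each pair of groups was fitted alone, the shRNAs were compared over 8 libraries and responses over 12. The SE is the absolute log2 fold change over the square root of F. Scripts were tested on simulated counts. CPM are counts over column totals. Every Hox gene called in any of the 3 comparisons was named. Single values of some listed genes are not reported here. The members and all lists were chosen with earlier results of these data known. Alternatives were RLE or library-size scaling, no filter, DESeq2 1.42.0, other thresholds, halved counts, all libraries in 1 fit, the replicate number as a block and each library left out. Identifiers of all 39 genes matched the GENCODE annotation of mm9.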

Additional observations from a re-analysis of the deposited data

Results flagged for a closer look

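The results below are those in which the response to KD and the response to EB differentiation differed in the fit of all 12 libraries. Each value is the log2 change in KD minus the log2 change from EB day 0 to EB day 6. With shGas41-1 the difference was 2.30 for Hoxa10, 1.91 for Hoxa11, 1.77 for Hoxb9, 2.54 for Hoxc10, 4.07 for Hoxc11, 7.15 for Hoxc12, 2.59 for Hoxc13, 8.88 for Hoxd10, 3.54 for Hoxd11 and 4.09 for Hoxd12, and -2.01 for Hoxa3 and -10.62 for Hoxb1. With shGas41-2 it was 2.62 for Hoxa10, 2.85 for Hoxa11, 1.75 for Hoxb9, 2.41 for Hoxc10, 3.97 for Hoxc11, 7.26 for Hoxc12, 2.59 for Hoxc13, 7.64 for Hoxd10, 2.62 for Hoxd11 and 4.09 for Hoxd12, and -1.28 for Hoxd1 and -12.37 for Hoxb1. The values for Hoxb1, Hoxc12, Hoxd10 and Hoxd12 rest on groups with 0 to 2 counts in all and depend on the prior count. Both contrasts use the same EB and shNT libraries and are not independent. For Hoxb9 and HoxC genes 10 to 13 the difference came with a fall at EB day 6 and no call in KD, and for Hoxa10, Hoxd10 and Hoxd11 with a rise in KD. Hoxb9 was also lower in every KD library than in every shNT library. In Hoxa10, Hoxd10 and Hoxd11 both EB day 6 libraries were also below both EB day 0 libraries, without a call. Groups of 2 or 3 libraries were not tested for outlying values of single genes.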

How the results depend on the processing

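None of the called Hox genes changed direction under any alternative in which it was tested. With shGas41-1 the 8 upregulated Hox genes became 5 with the replicate block and between 4 and 7 when 1 library was left out (4 without shNT 3, 5 without shNT 2 or shGas41-1 library 1). With shGas41-2 the 6 became between 0 and 6 (0 without shGas41-2 library 2, 1 without its library 1, 2 without shNT 2, 3 without shNT 3). At EB day 6 the 10 upregulated genes became 4 with halved counts, where 15 Hox genes passed the filter in place of 30, and between 2 and 9 with 1 library left out (2 without EB day 0 library 3, 3 without its library 2). The 5 downregulated genes became 8 in 1 fit of all 12 libraries and between 3 and 6 with 1 library left out (3 without EB day 0 library 3). Where 1 library remained in a group, it is assumed to vary like the others. The cause of the other changes was not tested. With group means subtracted, same-numbered libraries correlated by -0.387, 0.145 and 0.00503 with shGas41-1, 0.336 and 0.239 with shGas41-2 and 0.0549 in EBs. In a group of 2 libraries such values mirror each other, so those of shGas41-2 and EBs cannot decide whether libraries were paired. The main fits did not take the numbers as pairs. Over all genes, the replicate block changed the number upregulated from 1444 to 1019 with shGas41-1 and from 728 to 1122 with shGas41-2. Under the block 6 Hox genes were upregulated with shGas41-2, 11 were upregulated and 6 downregulated at EB day 6, 13 and 11 differed between KD and EB responses, and 0 differed between the shRNAs. Of the values for single called genes under the alternatives, 316 stayed on the same side of the threshold and 72 no longer passed it. The count filter left 23, 25 and 30 of the 39 genes in the 3 comparisons, so the others were not tested in the main fits. Without the filter 39, 37 and 39 Hox genes were tested, and 7, 6 and 10 were upregulated.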
